A study of Homo sapiens with 44 samples.

Results

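The RNAs of the cytosolic ribosomal proteins and their paralogs were followed in HCT116, a human colon cancer cell line. Members were taken by gene symbol, as RPL or RPS with a number and at most an A or X after it, together with RPSA, the stalk proteins RPLP0, RPLP1 and RPLP2, and the paralogs RPL22L1, RPL26L1, RPL36AL and RPL39L. The rule used names and no measured value. It found 81 genes of the 21272 in either of 2 deposited tables, 80 of them in both, since RPL21 had a row in the doxorubicin table alone. In the table of the GAS41 experiment, 42 members belonged to the body of the large subunit, 3 to its stalk and 31 to the small subunit, and 4 were paralogs. RPL39L had too few reads to test in either table, RPL21 reached no more than 1 read, and 78 members were tested in each.

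The series is about crotonylation of histone H3 in the repression of transcription, and GAS41, encoded by YEATS4, is a reader of acylated histones. In the GAS41 experiment 12 libraries fell into 4 groups of 3, all HCT116 p53+/+: wild-type cells (WT), a GAS41 knockout (GAS41-KO), and that knockout stably expressing GFP-Flag-GAS41 either of normal sequence (wt rescue) or with the changes Y74A and W93A (mut rescue). The doxorubicin experiment had 3 libraries of cells given 500 nM doxorubicin, a topoisomerase II poison, and 3 of cells given the solvent DMSO. The number of clones behind each line, the promoter of the rescue constructs and the hours of treatment are not given in the sources used here. The 26 ChIP and input samples were not analysed here. The labels call the replicates biological without naming cultures, so the p-values speak for the scatter among these libraries and no further.

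A ribosome is built from a small subunit, which reads the mRNA, and a large subunit, which joins amino acids, and most of their proteins are present in a single copy. Cells make these proteins in step, and many of their mRNAs begin with a C followed by a run of C and T bases, the 5′ terminal oligopyrimidine or TOP motif, through which growth signals control their translation. Ribosomal proteins that are not built into ribosomes can also act elsewhere, and RPL5 and RPL11, bound to 5S rRNA, are known to block MDM2 and so raise p53. A few members have paralogs that can take their place, such as RPL22L1 for RPL22.

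The bases around the RefSeq start site are shown for members with the largest changes, for the pair RPL22 and RPL22L1, and for the pair RPL26 and RPL26L1. Each window runs from 10 bases before the start to 20 bases after it in GRCh38.p14, 5′ to 3′ on the gene's strand. Capitals mark a C at the start and the run of C and T after it, where that run has at least 4 bases.
RPL22L1: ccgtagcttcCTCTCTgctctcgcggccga
RPL22: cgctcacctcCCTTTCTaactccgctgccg
RPL3: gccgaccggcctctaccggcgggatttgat
RPL10A: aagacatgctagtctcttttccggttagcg
RPL13A: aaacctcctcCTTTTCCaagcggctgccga
RPS16: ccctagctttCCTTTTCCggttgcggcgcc
RPS19: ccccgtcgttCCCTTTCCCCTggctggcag
RPS26: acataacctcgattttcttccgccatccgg
RPL26: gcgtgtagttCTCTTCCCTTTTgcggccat
RPL26L1: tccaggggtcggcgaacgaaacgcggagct
RPL22L1 lies at chr3:170870176-170870205 on the minus strand and RPL22 at chr1:6199576-6199605 on the minus strand. RPL3 lies at chr22:39319604-39319633 (minus), RPL10A at chr6:35468391-35468420 (plus), RPL13A at chr19:49487598-49487627 (plus) and RPS16 at chr19:39435930-39435959 (minus). RPS19 lies at chr19:41860245-41860274 (plus), the first of its 2 listed starts, and RPS26 at chr12:56041908-56041937 (plus). RPL26 lies at chr17:8383174-8383203 (minus). RPL26L1 has 2 listed starts, neither with such a run, and the window shown lies at chr5:172958719-172958748 (plus). These are descriptions of the reference, and the start used in HCT116 was not measured.

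Of the 81 members, 65 had an entry in the RefSeq promoter table, and 47 of them (72.3%) had the run of C and T at a listed start, against 5.14% of 27305 genes in that table. Within 250 bases before to 50 bases after the start, on either strand, the letters CTTCCG occurred in 41 of the 65 (63.1%, against 22.6% of all genes). CACGTG occurred in 4 members (6.15%, against 8.77%). A further motif searched, a 10-base palindrome with CGCG at its centre, occurred in RPL17, RPL26, RPS19 and RPS6 (6.15%, against 0.505%). The run was therefore common among members, yet RPL3, RPL10A, RPS26 and RPL26L1, which are among the most changed, lacked it at their listed starts.

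Library totals ran from 16857982 to 18546135 reads for GAS41 and from 17442035 to 18894312 for doxorubicin. Levels are normalized reads, that is recovered reads over the library's size factor, with mean ± SD of 3 libraries, and log2 changes refer to the values as deposited, a scale that shrinks differences at low levels. Calls are from limma at an adjusted p under 0.05, with Benjamini-Hochberg adjustment over all tested genes. YEATS4 RNA was 618 ± 8.98 normalized reads in WT, 349 ± 32.3 in GAS41-KO, 3253 ± 323 in wt rescue and 2482 ± 108 in mut rescue, so RNA of the targeted gene remained in the knockout. Epithelial keratin and adhesion markers were present in all groups (7 of 11 colon epithelium markers tested in the GAS41 experiment, 8 in the other), and of 6 blood markers LYZ alone was tested. DMSO replicate 1, wt rescue replicate 1 and mut rescue replicates 2 and 3 stood apart from their groups in the members' levels, and several counts are given without them beside the results.

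The members' share of all reads was 6.76%, 6.88% and 6.93% in WT, 7.43%, 7.20% and 7.25% in GAS41-KO, 7.08%, 7.51% and 7.78% in wt rescue, and 7.61%, 8.11% and 6.82% in mut rescue. The WT libraries lay close together and below all GAS41-KO and wt rescue libraries, while 1 mut rescue library lay within the WT range and 2 lay above every GAS41-KO library. In the other experiment the share was 10.0%, 9.01% and 8.48% with DMSO, and 7.10%, 8.07% and 7.35% with doxorubicin. These 2 groups did not overlap, with means of 9.18% ± 0.799 and 7.51% ± 0.507.

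Doxorubicin was set against DMSO to show how RNA levels respond to the drug. Most ribosomal protein RNAs were lower with doxorubicin, by unequal amounts. The paralog RPL22L1 fell furthest, RPL3, RPL10A, RPL13A and RPS16 fell 2.05- to 2.83-fold by the ratio of means, and the stalk proteins RPLP1 and RPLP2 were not called on the deposited scale. Of 78 members 54 fell and 1, RPS19, rose, against 33.4% of 14195 tested genes called lower and 65.7% called in either direction. The median change of the members was -0.38 on the log2 scale, against -0.01 over all tested genes. The groups of 53 members did not overlap, against 69.1% of all tested genes. YEATS4 itself fell from 668 ± 48.3 to 185 ± 10.7 normalized reads, MYC went from 6826 ± 377 to 6041 ± 72.3 (log2 change -0.17, adjusted p = 0.0499), and the summed colon epithelium markers went from 61213 to 73630 with DMSO to 114369 to 127333 with doxorubicin. Their part in the members' change was not tested. In bulk RNA, a loss of cells with high levels and less RNA per cell cannot be told apart.

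RPL22L1, the paralog that can replace RPL22 in the large subunit, had 6005, 4433 and 4515 normalized reads in the DMSO libraries and 493, 614 and 509 in the doxorubicin libraries. The lowest DMSO library was far above the highest treated library. The level fell from 4984 ± 885 to 539 ± 65.6, which is 9.26-fold lower (log2 change -2.81, SE 0.11, adjusted p = 1.75e-10, limma). It had the largest fall of all 14195 tested genes on the deposited scale, and ranked 3 in the 4 fits made with voom on recovered reads. RPL22 itself, an RNA-binding protein of the large subunit, had 12499, 11079 and 11595 normalized reads with DMSO and 7098, 8435 and 7320 with doxorubicin. It fell less, by 0.61 on the log2 scale (adjusted p = 2.88e-05), and its groups did not overlap either. The level of RPL22L1 relative to RPL22 was 48.0%, 40.01% and 38.9% with DMSO and 6.94%, 7.28% and 6.95% with doxorubicin (means 42.3% ± 4.98 and 7.06% ± 0.189, exact permutation p = 0.1, two-sided, the smallest that 3 against 3 allows).

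**Figure D1:**
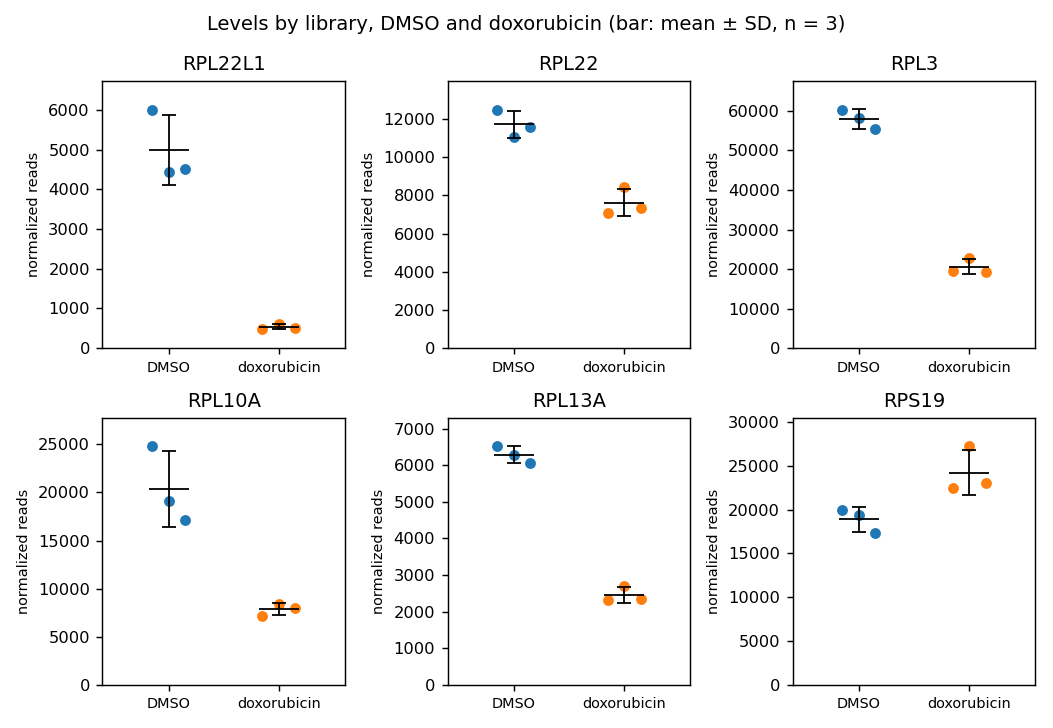
Normalized reads of 6 members in each DMSO and doxorubicin library (y axis from 0, points are libraries, bars are mean ± SD, n = 3). RPL22L1 lies between 493 and 614 with doxorubicin and between 4433 and 6005 with DMSO, and RPS19 is the panel in which the treated libraries are higher.

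RPL3, a large core protein that lines the peptidyl transferase region, had 60320, 58299 and 55358 normalized reads with DMSO and 19491, 22714 and 19359 with doxorubicin. All 3 treated libraries were below all DMSO libraries, and the fall was 2.83-fold (log2 change -1.49, SE 0.09, adjusted p = 7.92e-09). RPL10A, a protein near the exit site for tRNA, had 24794, 19123 and 17118 normalized reads with DMSO and 7184, 8412 and 7969 with doxorubicin. It fell 2.59-fold (log2 change -1.34, adjusted p = 4.57e-07), and DMSO replicate 1 was the highest library. RPL13A, which also serves in interferon-linked control of translation, went from 6514, 6288 and 6059 to 2328, 2696 and 2339 normalized reads. It fell 2.56-fold with tight groups (log2 change -1.29, adjusted p = 9.64e-09).

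RPS16 was the most reduced small-subunit RNA, with 20110, 16804 and 15326 normalized reads in DMSO libraries and 7953, 9281 and 8225 in treated libraries. It fell 2.05-fold (log2 change -1.01, adjusted p = 1.43e-06). RPL22L1, RPL22, RPL3, RPL10A, RPL13A, RPS16, RPL5 and RPS19 remained past the threshold in all 13 alternatives tried. RPL5 and RPL11, partners in the MDM2-binding particle, moved by different amounts. RPL5 went from 25971, 24019 and 24427 to 12784, 15079 and 12936 normalized reads, a fall of 0.86 on the log2 scale (adjusted p = 1.19e-06). RPL11 went from 27012, 21937 and 20971 to 17420, 20734 and 18100, a fall of 0.31 (adjusted p = 0.0188) that was lost without DMSO replicate 1, doxorubicin replicate 1 or doxorubicin replicate 3, and after quantile normalization. Scaled to the members' own total, RPL11 stood at 0.07.

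RPS19, a small-subunit protein mutated in Diamond-Blackfan anemia, had 19981, 19391 and 17314 normalized reads with DMSO and 22445, 27216 and 23027 with doxorubicin. Every treated library was above every DMSO library, and the level rose 1.28-fold (log2 change 0.35, SE 0.09, adjusted p = 0.00435). Without DMSO replicate 1, RPL39, RPS20, RPS27 and RPS4X were called higher as well, which made 5 rises and 50 falls with a median of -0.25. These names follow from that alternative and were chosen after their values were seen. After quantile normalization 8 members were called higher and 40 lower, with a median of -0.18.

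**Figure D2:**
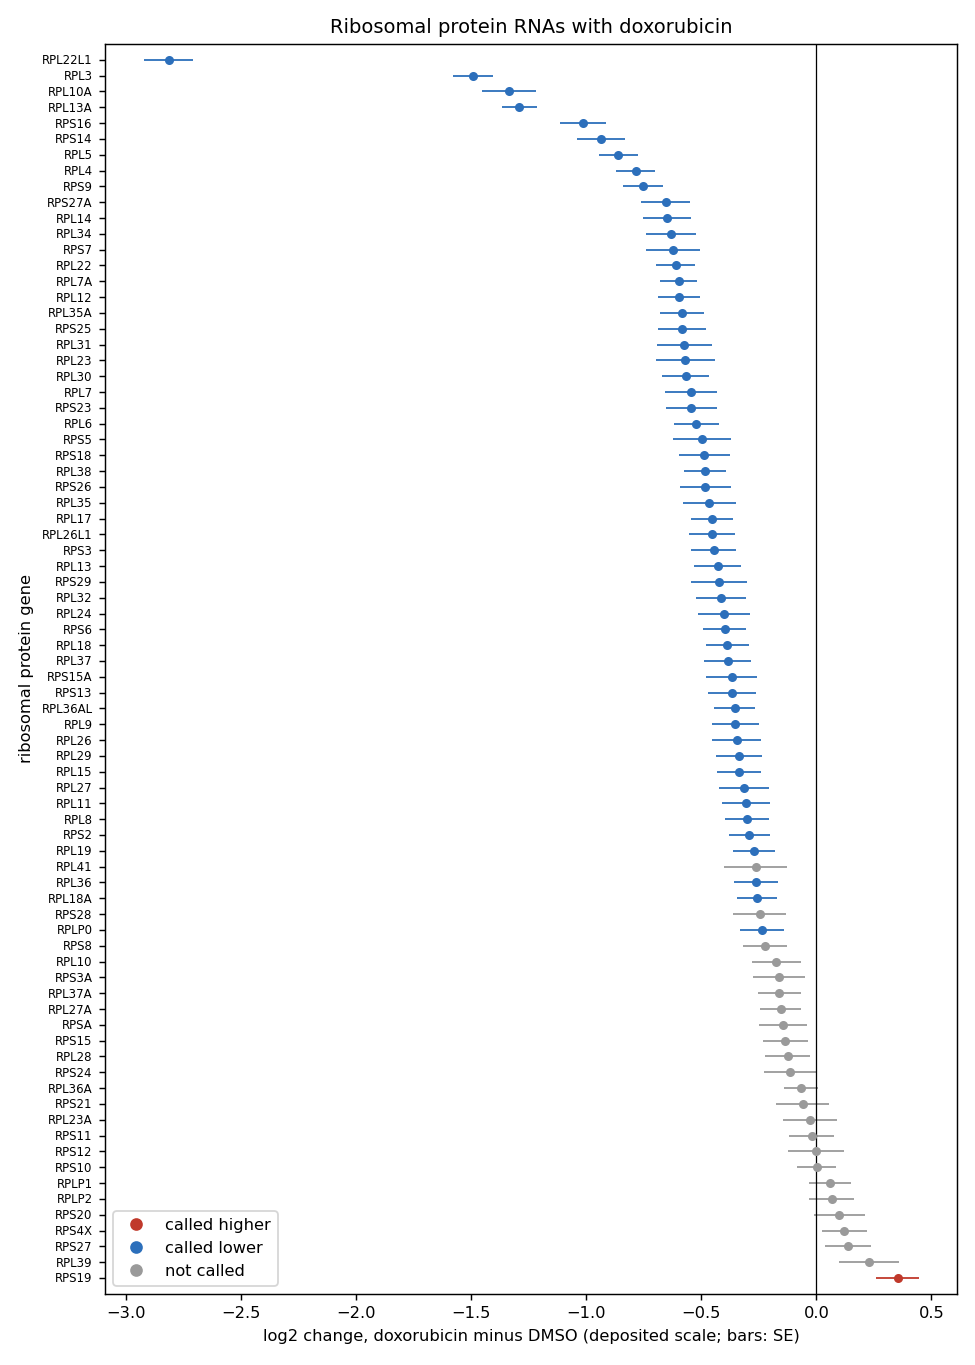
Log2 change on the deposited scale for the 78 tested members, doxorubicin minus DMSO (x axis), ordered by size, with bars of 1 SE. RPL22L1 stands alone at -2.81, 4 further members lie below -1, and RPS19 at 0.35 is the called rise.

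By subunit, 34 of 42 large-subunit members fell and none rose, while 16 of 30 small-subunit members fell and 1 rose. Of the stalk proteins, which recruit the translation factors, RPLP1 went from 34877 ± 2131 to 36485 ± 3935 normalized reads (log2 change 0.06, adjusted p = 0.573) and RPLP2 from 17472 ± 1309 to 18392 ± 2458 (0.07, adjusted p = 0.559). Both were called higher after quantile normalization (0.34 and 0.27) and when scaled to the members' total. RPLP0, the stalk base, was called lower at -0.24 (adjusted p = 0.0477), with overlapping groups. RPLP0 had an adjusted p under 0.05 in 5 of 13 alternatives. Among these 5 was the scaling to the members' total, where it was called higher, at 0.14 (adjusted p = 0.0353, limma). The lower call was lost without the filter and without DMSO replicate 1 or 2 or doxorubicin replicate 1 or 3. After quantile normalization the value turned to 0.04. All 3 tested paralogs fell. RPL26L1, the paralog of RPL26, went from 1152, 917 and 793 to 573, 685 and 662 normalized reads (log2 change -0.45, adjusted p = 0.00141), and RPL26 fell by 0.35 (adjusted p = 0.0107). RPL36AL fell by 0.35 (adjusted p = 0.00338), whereas its near-identical partner RPL36A had 193, 160 and 174 against 130, 182 and 172 normalized reads and was not called. RPL39 went from 7498 ± 1685 to 8692 ± 677 (adjusted p = 0.137) and RPSA, the laminin receptor protein of the small subunit, from 27249 ± 4164 to 24473 ± 1595 (adjusted p = 0.232).

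To describe how the members moved against each other, reads were also scaled to the members' own total, an alternative chosen after seeing the data, under which the median of all genes shifted to 0.36. On this scale 19 members were lower and 20 higher. RPL22L1 stood at -2.83, RPL3 at -1.12, RPL10A and RPL13A both at -0.98 and RPS16 at -0.65. At the other end RPS19 stood at 0.73, RPL39 at 0.61, RPLP2 at 0.45 and RPLP1 at 0.44. The members were thus spread over both signs on this scale. On the deposited scale, 29 of 46 tested members with the start run fell and 1 rose (median -0.38), and 15 of 18 without it fell (median -0.42). The difference between these sets was not tested.

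Other genes of translation are given from lists. Of 23 tested translation factors and other genes known for TOP mRNAs, 16 fell and 1, TMA7, rose (median -0.39). HNRNPA1, an RNA-binding protein, fell from 2414 ± 64.3 to 764 ± 69.0 normalized reads, EIF4B, a cofactor of the initiation helicase, from 21119 ± 657 to 7772 ± 293, and NPM1, a nucleolar chaperone, from 52675 ± 5531 to 24969 ± 831. Among 13 noncoding hosts of small nucleolar RNAs, whose spliced RNAs also carry TOP starts, 11 fell and SNHG12 rose (median -0.48). GAS5 fell from 2567 ± 63.3 to 1471 ± 73.4.

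Of 6 tested ribosomal family genes outside the symbol rule, RPS27L, a paralog of RPS27 and a p53 target, rose from 1656 ± 220 to 6092 ± 621 normalized reads, 3.68-fold (adjusted p = 4.48e-09). RSL24D1, a factor of large-subunit assembly related to RPL24, fell from 4752 ± 472 to 2041 ± 99.3. GNB2L1, the scaffold protein RACK1 of the small subunit, fell from 34094 ± 1134 to 25826 ± 2176. FAU, which encodes a ribosomal protein fused to a ubiquitin-like sequence, was not called (0.10 on the log2 scale). The paralogs RPL22L1 and RPS27L were thus called in opposite directions.

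Knockout cells were compared with WT to show which RNAs depend on GAS41. Ribosomal protein RNAs changed little and in both directions. RPL23A, RPL31 and RPL13 rose 1.24- to 1.28-fold by the ratio of means, and RPS26, RPL22 and RPL26L1 fell. Of 78 members 13 rose and 6 fell, against 52.6% of 14505 tested genes called in either direction, 26.0% higher and 26.6% lower. The groups of 52 members did not overlap, against 69.0% of all genes. The median change was 0.08, against -0.01 over all genes, and the largest change of any member was 0.41.

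RPL23A, which sits at the exit of the peptide tunnel, had 14334, 13726 and 13578 normalized reads in WT and 17488, 17425 and 18298 in GAS41-KO. RPL31, also near that exit, had 8497, 8518 and 8567 in WT and 10729, 10848 and 10613 in GAS41-KO. The groups did not overlap for either gene, with log2 changes of 0.35 (adjusted p = 0.000854) and 0.33 (adjusted p = 0.000802). RPL13 went from 19270, 19509 and 18660 to 24005, 24026 and 23298 normalized reads, a rise of 0.31 (adjusted p = 0.00428). RPS28 had the largest rise, 0.41, from 3001 ± 77.9 to 4049 ± 277 (adjusted p = 0.0185), which was lost without WT replicate 1 or without GAS41-KO replicate 1 or 2. RPL28 rose from 8490 ± 387 to 10679 ± 238 (adjusted p = 0.0164), lost without WT replicate 1 or GAS41-KO replicate 2.

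RPS26, a small-subunit protein at the mRNA exit, had 5742, 6047 and 5895 normalized reads in WT and 5200, 4598 and 4556 in GAS41-KO. RPL22 had 10446, 9835 and 10334 in WT and 8825, 8356 and 8449 in GAS41-KO. Every GAS41-KO library was below every WT library for both, and the falls were 0.29 (adjusted p = 0.0068) and 0.25 (adjusted p = 0.00704) on the log2 scale. The calls of RPL23A, RPL31, RPL13, RPS26 and RPL22 remained in all 21 alternatives. RPL26L1 fell by 0.22 (adjusted p = 0.0398), RPL17 by 0.23 (0.0307, limma adjusted p) and RPL5 by 0.17 (adjusted p = 0.0295), and these kept the threshold in 14, 17 and 16 of the 21 alternatives. RPL22L1 went from 3660, 3344 and 3634 to 3545, 3136 and 3178 and was not called (-0.11, adjusted p = 0.303). RPL39 (0.22), RPL26 (0.08), RPL36AL (0.02), RPL36A (-0.04), RPL11 (0.07), RPSA (0.07), RPLP0 (0.03), RPLP1 (0.16) and RPLP2 (0.08) were not called, with adjusted p from 0.0721 for RPL39 to 0.754 for RPL36AL.

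**Figure D3:**
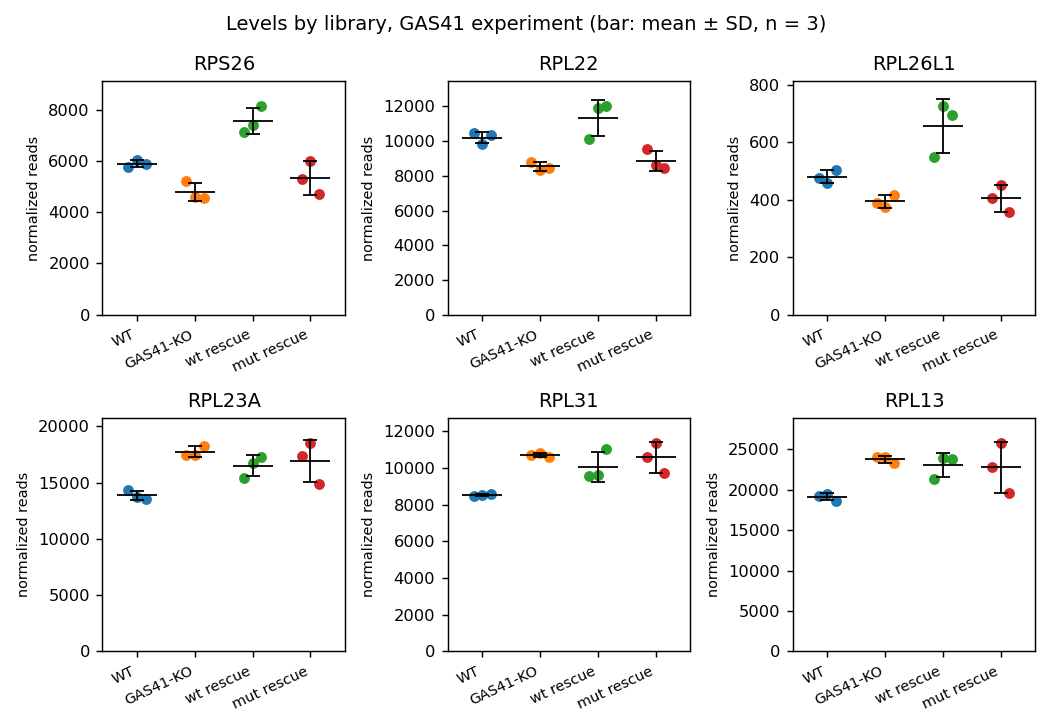
Normalized reads of 6 members in each library of the GAS41 experiment (y axis from 0, points are libraries, bars are mean ± SD, n = 3). RPS26, RPL22 and RPL26L1 are lower in GAS41-KO and mut rescue than in wt rescue, whereas RPL23A, RPL31 and RPL13 are above WT in each of the other groups.

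By subunit, 8 of 42 large-subunit members rose and 4 fell, and 5 of 30 small-subunit members rose and 1 fell. No stalk protein passed the test, and of the paralogs RPL26L1 alone did. The counts rest on how the spread was estimated: fitted on WT and GAS41-KO alone, 42 members were called higher and 16 lower, and leaving out single libraries gave 6 to 22 higher and 2 to 10 lower. The count of rises was 6, 8 and 8 without WT replicates 1, 2 and 3, 7 and 8 without GAS41-KO replicates 1 and 3, 22 without wt rescue replicate 1 and 20 without mut rescue replicate 3. The count of falls was 3, 2 and 2 without the WT replicates, 2 and 3 without GAS41-KO replicates 2 and 3, and 10 without wt rescue replicate 1. Quantile normalization gave 25 higher and 10 lower. The shares of all tested genes given above belong to the fit of all 4 groups. Those of these alternatives are not given here, so such counts cannot be set against them.

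Set side by side with doxorubicin, a separate experiment on another sequencer, RPS19 was called higher in both experiments (0.26, adjusted p = 0.0227, in GAS41-KO over WT). RPL22, RPL5, RPS26 and RPL26L1 were among the members called lower in both. With doxorubicin 69.2% of all tested members were called lower. RPL13A was called in opposite directions, at 0.31 in GAS41-KO over WT and -1.29 with doxorubicin. RPL31 and RPL13 were likewise higher in GAS41-KO and lower with doxorubicin (-0.57 and -0.43). No test compared the experiments. Of 23 tested translation factors and TOP genes 5 rose and 7 fell in GAS41-KO (median -0.06), with NPM1 at 50640 ± 1874 in WT and 37545 ± 2193 in GAS41-KO. Among 13 snoRNA hosts 4 rose and 5 fell (median -0.11).

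Cells with normal GAS41 put back were compared with GAS41-KO to show which RNAs respond to its return. Ribosomal protein RNAs were higher in wt rescue, most of all RPS26, RPL26L1, RPL24, RPS7 and RPL35, but the size and even the direction of the group change depended on scaling. Of 78 members 36 rose and none fell, against 66.0% of all tested genes called in either direction and 33.0% called higher, and 42 members had an unadjusted p under 0.05 in limma. The groups of 45 members did not overlap, against 68.8% of all genes. The median change was 0.18, against -0.01 over all genes, and after quantile normalization it was -0.06 with 12 members called higher and 21 lower.

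RPS26 had 5200, 4598 and 4556 normalized reads in GAS41-KO and 7135, 7403 and 8136 in wt rescue. The groups were far apart, and the level rose 1.58-fold (log2 change 0.64, SE 0.09, adjusted p = 4.81e-06), above its WT level of 5895 ± 152. RPL26L1 had 390, 375 and 418 against 550, 726 and 696 normalized reads and rose 1.67-fold (log2 change 0.57, adjusted p = 1.84e-05). RPL24, a large-subunit protein that bridges to the small subunit, went from 11335, 10226 and 10626 to 13622, 16192 and 16181 (log2 change 0.51, adjusted p = 1.84e-05). RPS7, which can also bind MDM2, went from 10547, 10184 and 10382 to 12927, 14767 and 15290 (log2 change 0.46, adjusted p = 3.56e-05). In each of these, wt rescue replicate 1 was the lowest of its group and still above every GAS41-KO library. RPL35, a protein at the tunnel exit, rose by 0.42 (adjusted p = 0.000757), a call lost after quantile normalization, where it stood at 0.17 (adjusted p = 0.0575).

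RPL22 rose by 0.40 (adjusted p = 0.000126), RPL5 by 0.40 (adjusted p = 4.53e-05) and RPL22L1 by 0.34 (adjusted p = 0.00191). RPS26, RPL26L1, RPL24, RPS7, RPL22 and RPL5 remained past the threshold in all 21 alternatives, quantile normalization and scaling to the members' total included. RPL26 (0.22), RPLP0 (0.25) and RPLP2 (0.21) were called as deposited and were negative after quantile normalization, at -0.07, -0.07 and -0.04. RPLP2 kept its call in 6 of 21 alternatives. RPSA rose by 0.33 (adjusted p = 0.00147) and RPL11 by 0.23 (adjusted p = 0.0118), kept in 19 and 15 of 21 alternatives. Both calls were lost after quantile normalization and with wt rescue replicate 1 alone. The call of RPL11 was also lost with upper quartile factors and without wt rescue replicate 3. Scaling to the reads outside the members or to those on them ended it as well. RPLP1 (0.16), RPL39 (0.09), RPL36AL (0.04) and RPL36A (-0.19) were not called. RPL23A, RPL31 and RPL13, the members raised in GAS41-KO, were not called (-0.10, -0.09 and -0.05). This comparison shares the GAS41-KO libraries with that against WT.

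Without wt rescue replicate 1, 53 members were called higher and none lower. With that replicate as the group's single library, 15 members were called higher and 1 lower, with a lone library assumed to vary like the others. Of the other lists, 13 of 23 translation factors and TOP genes rose and 2 fell (median 0.21), 9 of 13 snoRNA hosts rose and 1 fell (median 0.43), and 27 of 40 short mRNAs of other functions rose and 2 fell (median 0.25). Of 40 long mRNAs 7 rose and 26 fell (median -0.47). Short mRNAs of other functions, many of them for respiratory chain and ATP synthase subunits, were thus higher along with the members. Gene lengths were not used, and the part of transcript length in these counts was not tested. The summed colon epithelium markers were 54172 to 55867 normalized reads in GAS41-KO and 66931 to 78932 in wt rescue, and their part was not tested either. MYC, a transcription factor known to drive ribosomal protein genes, was 5812 ± 96.1 normalized reads in WT, 3628 ± 50.5 in GAS41-KO, 7304 ± 684 in wt rescue and 5218 ± 635 in mut rescue, and its part was not tested.

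**Figure D4:**
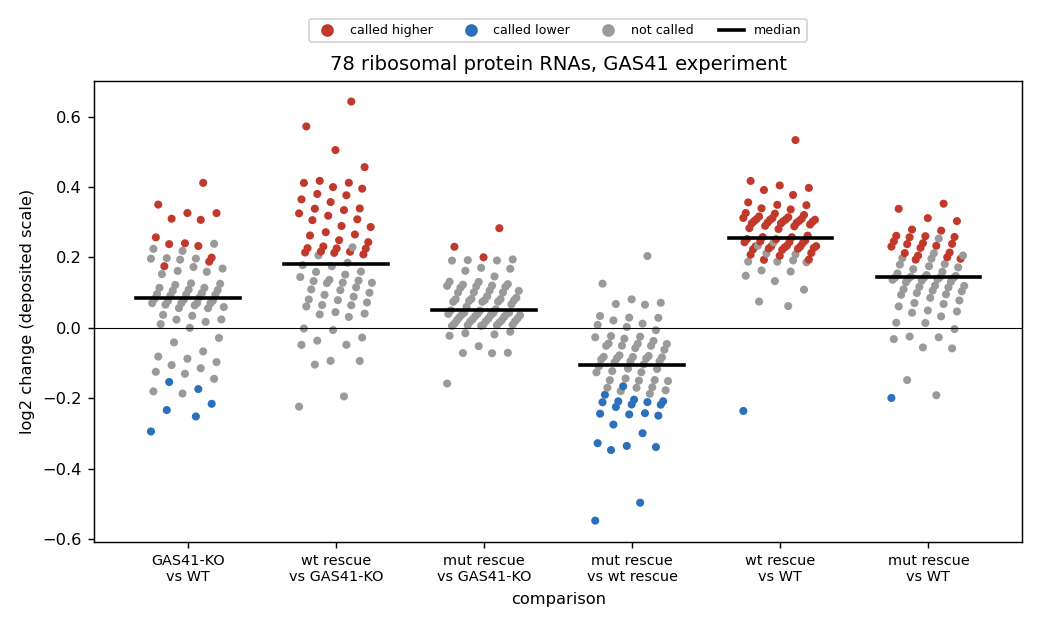
Log2 change on the deposited scale (y axis) of each of the 78 tested members in 6 comparisons of the GAS41 experiment (x axis), with a black bar at the median. The medians are 0.08, 0.18, 0.05, -0.11, 0.26 and 0.14 from left to right, and nearly all members are above 0 in wt rescue over WT.

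Cells with the mutant GAS41 were compared with the same GAS41-KO libraries. Few members changed. RPL17, RPL24 and RPL7 rose and none fell, so that 3 of 78 members were called, against 14.9% of all tested genes called in either direction and 5.92% called higher, and 8 members had an unadjusted p under 0.05 in limma. RPL17, a protein of the tunnel exit, went from 1855, 1788 and 1656 to 2332, 2204 and 2014 normalized reads (log2 change 0.28, adjusted p = 0.0351). RPL24 went from 11335, 10226 and 10626 to 12731, 13346 and 11780 (0.23, adjusted p = 0.0462) and RPL7, an RNA-binding protein of the large subunit, from 30523, 29612 and 29950 to 35197, 36052 and 32439 (0.20, adjusted p = 0.0314). The groups of all 3 did not overlap, as was so for 7 of 78 members against 33.7% of all genes, and mut rescue replicate 3 was the lowest of its group for each.

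These calls were fragile, kept in 12, 9 and 12 of 21 alternatives. The count of rises was 1 and 0 without WT replicates 2 and 3, and 0 without any single GAS41-KO replicate or without mut rescue replicate 1 or 2. It was 7 without wt rescue replicate 1 and 9 without mut rescue replicate 3. The median change of 0.05 was -0.0080 without mut rescue replicate 2 and 0.14 without mut rescue replicate 3. RPS26, RPL22 and RPL26L1, lower in GAS41-KO, had log2 changes of 0.15, 0.05 and 0.02 with adjusted p = 0.270, 0.697 and 0.890. RPL22L1 (0.19), RPL5 (0.17), RPL11 (0.11), RPL26 (0.07), RPL36A (0.01), RPL36AL (0.12), RPL39 (0.04), RPSA (0.13), RPLP0 (0.16), RPLP1 (0.08) and RPLP2 (0.03) were not called either, with adjusted p from 0.0838 for RPL5 to 0.965 for RPL36A.

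The rescue lines were compared directly to show what the Y74A and W93A changes alter. Several members were lower in mut rescue than in wt rescue, led by RPL26L1 and RPS26. Of 78 members 22 fell and none rose, against 61.1% of all tested genes called in either direction, 29.8% higher and 31.3% lower, and 25 members had an unadjusted p under 0.05 in limma. The groups of 14 members did not overlap, against 57.9% of all genes. The median was -0.11, against 0.00 over all genes, and it was 0.05 after quantile normalization, which called 17 members higher and 4 lower.

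RPL26L1 had 550, 726 and 696 normalized reads in wt rescue and 408, 450 and 356 in mut rescue, 1.62-fold lower (log2 change -0.55, adjusted p = 4.1e-05). RPS26 had 7135, 7403 and 8136 against 5291, 6000 and 4692, 1.42-fold lower (log2 change -0.50, adjusted p = 9.14e-05). RPL22 had 10145, 11892 and 12024 against 9535, 8626 and 8469, 1.28-fold lower (log2 change -0.35, adjusted p = 0.000561). None of the 3 had overlapping groups, and they were lower in all 21 alternatives, past the threshold in each. RPS7 fell by 0.34 (adjusted p = 0.000706) and RPS13, a small-subunit protein at the subunit interface, by 0.34 (adjusted p = 0.00329), both lost when wt rescue replicate 1 stood alone, and RPS13 also after quantile normalization. RPL5 fell by 0.23 (adjusted p = 0.00591) and RPSA by 0.20 (adjusted p = 0.0346), kept in 16 and 11 of 21 alternatives, and RPSA had overlapping groups and stood at 0.045 after quantile normalization. RPL22L1 (-0.15), RPL26 (-0.15), RPL11 (-0.13), RPLP0 (-0.09), RPLP1 (-0.08), RPLP2 (-0.19), RPL39 (-0.05), RPL36A (0.20) and RPL36AL (0.08) were not called, though after quantile normalization RPLP0 was called higher at 0.093 (adjusted p = 0.0404).

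By subunit, 13 of 42 large-subunit and 8 of 30 small-subunit members fell, and no stalk protein did. The count of falls was 46 without wt rescue replicate 1, 12 and 8 without wt rescue replicates 2 and 3, and 35 and 9 without mut rescue replicates 2 and 3. It was 7 when these 2 groups alone were fitted and 3 with wt rescue replicate 1 alone in its group. RPL13A, RPL23A and RPL31 were 0.24, 0.15 and 0.18 higher in mut rescue when scaled to the members' total, with adjusted p = 0.00127, 0.0174 and 0.0097, and were not called on the deposited scale (0.13, 0.03 and 0.07). Of the other lists, 10 of 23 translation factors and TOP genes fell and 2 rose, 5 of 13 snoRNA hosts fell and 2 rose, and 20 of 40 short mRNAs fell and 2 rose, while 28 of 40 long mRNAs rose and 5 fell.

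The wt rescue line was compared with WT to show where its RNA levels differ from those of wild-type cells. Most members were higher in wt rescue, RPS13 and RPL24 most of all. Of 78 members 62 rose and 1, RPL36A, fell, against 50.1% of all tested genes called in either direction and 27.4% called higher. The groups of 74 members did not overlap, against 57.3% of all genes. On the deposited scale the median change was 0.26, against 0.01 over all genes, a shift that was wide but small in size. After quantile normalization the members' median was 0.03, against 0.04 over all genes, so the shift depended on scaling.

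RPS13 had 9114, 8752 and 8891 normalized reads in WT and 12023, 12527 and 14517 in wt rescue, and rose 1.46-fold (log2 change 0.53, adjusted p = 0.000223). RPL24 went from 11382, 11106 and 11726 to 13622, 16192 and 16181 (log2 change 0.42, adjusted p = 0.000411). RPSA went from 15352, 15816 and 15574 to 18270, 22240 and 21761 (log2 change 0.40, adjusted p = 0.000819). Replicate 1 was the lowest wt rescue library for each, yet above all WT libraries. RPL10, which completes the peptidyl transferase region late in assembly, rose by 0.40 (adjusted p = 0.000715), and RPL30, which binds its own RNA, by 0.39 (adjusted p = 0.00172). RPS13, RPL24 and RPL10 kept the threshold in all 21 alternatives.

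RPL36A had 278, 259 and 250 normalized reads in WT and 207, 199 and 205 in wt rescue (log2 change -0.24, adjusted p = 0.0425), a call kept in 12 of 21 alternatives. RPL36AL went from 3543 ± 97.8 to 3705 ± 88.8 and was not called, at 0.06 on the deposited scale and -0.21 (adjusted p = 0.0422) when scaled to the members' total. By subunit, 35 of 42 large-subunit members rose and 1 fell, 22 of 30 small-subunit members rose, all 3 stalk proteins rose and 2 of 3 paralogs rose. RPLP0 rose by 0.28 (adjusted p = 0.00579), but after quantile normalization it was called lower, at -0.17 (adjusted p = 0.00245). RPLP1 rose by 0.32, RPLP2 by 0.30, RPL11 by 0.30, RPL26L1 by 0.36, RPL26 by 0.29 and RPL39 by 0.31. RPL22L1 rose by 0.23 (adjusted p = 0.0282) and RPL5 by 0.22 (adjusted p = 0.00885), and scaled to the members' total these stood at -0.03 and -0.05. RPL22 was not called (0.15, adjusted p = 0.0937).

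The number of rises varied more with the scaling than with single libraries. It was 9 after quantile normalization, 38 with upper quartile factors, 17 scaled to the reads outside the members and 4 scaled to the reads on them. Without wt rescue replicate 1 it was 70, without replicate 3 it was 29, and with replicate 1 alone it was 5. Scaling to the reads outside the members shifted the median of all genes to -0.12, and the members' median was then 0.12, that is 0.24 above it. Of the other lists, 17 of 23 translation factors and TOP genes rose and none fell (median 0.25), 8 of 13 snoRNA hosts rose and none fell (median 0.24) and 24 of 40 short mRNAs rose and none fell (median 0.21). Long mRNAs had 4 rises and 23 falls among 40 (median -0.31).

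The mut rescue line was also set against the same WT libraries. RPL28, RPL13A, RPL10, RPL31 and RPL23A led the rises, and RPL22 fell. Of 78 members 23 rose (29.5%) and 1 fell, against 46.3% of all tested genes called in either direction and 23.5% called higher. The groups of 27 members did not overlap, against 56.0% of all genes. The median change was 0.14, against 0.00 over all genes. In mut rescue replicate 3 the members' median stood at -0.01 from WT.

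RPL13A had 4040, 4218 and 4195 normalized reads in WT and 5302, 5824 and 4787 in mut rescue (log2 change 0.34, adjusted p = 0.00179). RPL31 had 8497, 8518 and 8567 against 10627, 11384 and 9736 (log2 change 0.30, adjusted p = 0.00173). Replicate 3 was the lowest mut rescue library in both and was still above WT. RPL10 rose by 0.31 (adjusted p = 0.0031) and RPL23A by 0.28 (adjusted p = 0.00554), and these 4 kept the threshold in all 21 alternatives. RPL28 had 8138, 8905 and 8427 against 10314, 13654 and 9139 (log2 change 0.35, adjusted p = 0.012), a log2 change of 0.19 without replicate 2, and it was not called when scaled to the members' total. RPL22 fell from 10205 ± 325 to 8876 ± 575 (log2 change -0.20, adjusted p = 0.0302), a call lost without WT replicate 1 or 3 and without mut rescue replicate 2 or 3.

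The count of rises was 46 without mut rescue replicate 3 and 10 and 8 without mut rescue replicates 1 and 2. It was 9, 10 and 13 without WT replicates 1, 2 and 3. By subunit, 13 of 42 large-subunit members rose and 1 fell, 8 of 30 small-subunit members rose, and of the stalk RPLP0 and RPLP1 rose. RPLP0 stood at 0.20 as deposited (adjusted p = 0.0423) and at -0.07 after quantile normalization. RPSA (0.20, adjusted p = 0.0474) and RPL39 (0.26, adjusted p = 0.0379) rose in the test, with calls kept in 10 and 14 of 21 alternatives, and the RPL39 groups overlapped. RPL22L1 (0.09), RPL26 (0.14), RPL26L1 (-0.19), RPL36A (-0.03), RPL36AL (0.14), RPL11 (0.18), RPL5 (-0.0034) and RPLP2 (0.11) were not called. Of the other lists 8 of 23 translation factors and TOP genes rose and 2 fell, 5 of 13 snoRNA hosts rose, 7 of 40 short mRNAs rose and 4 fell, and 9 of 40 long mRNAs rose and 3 fell.

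Across the 12 libraries of the GAS41 experiment, paralogs and partners followed different courses. RPL26L1 relative to RPL26 was 3.07% ± 0.0620 in WT, 2.39% ± 0.178 in GAS41-KO, 3.41% ± 0.289 in wt rescue and 2.33% ± 0.141 in mut rescue. Its libraries did not overlap between wt rescue and mut rescue, with 3.14%, 3.71% and 3.36% against 2.20%, 2.48% and 2.32% (exact permutation p = 0.1, the smallest possible). RPL22L1 relative to RPL22 was 34.7% ± 0.638 in WT, 38.4% ± 1.499 in GAS41-KO, 37.1% ± 2.29 in wt rescue and 42.6% ± 2.65 in mut rescue. All 4 groups had a higher RPL22L1 to RPL22 ratio than the 7.06% ± 0.189 of doxorubicin-treated cells in the other experiment. RPL39L stayed under the limit for testing, and RPL36A, RPL17 and RPS10 had few reads for ribosomal protein genes. RefSeq lists readthrough genes over these 3, and near-identical processed pseudogenes exist for many members, so their levels are uncertain in so far as shared reads were assigned in a way not given in the sources used here.

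The median difference of the members from WT was 0.14, 0.30 and 0.35 in the 3 wt rescue libraries, where long mRNAs stood at -0.09, -0.45 and -0.37 and short mRNAs at 0.11, 0.22 and 0.30. In mut rescue the members stood at 0.18, 0.28 and -0.01, long mRNAs at 0.07, -0.03 and 0.20 and short mRNAs at 0.01, 0.15 and -0.14. Over the 12 libraries the members' median had a Pearson r of -0.74 with the long list and 0.87 with the short list. Over the 6 libraries of the doxorubicin experiment these were -0.02 and 0.83. The libraries share groups and scaling, and many of the short mRNAs encode respiratory chain subunits, so these are descriptions. Within each rescue line, the libraries ranked alike by ribosomal protein RNAs and by short mRNAs of other functions. With doxorubicin, however, the members stood at -0.47, -0.26 and -0.40 and short mRNAs at -0.18, 0.03 and -0.14, and 12 of 40 short mRNAs fell and 3 rose, against 54 and 1 of the 78 members.

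**Figure D5:**
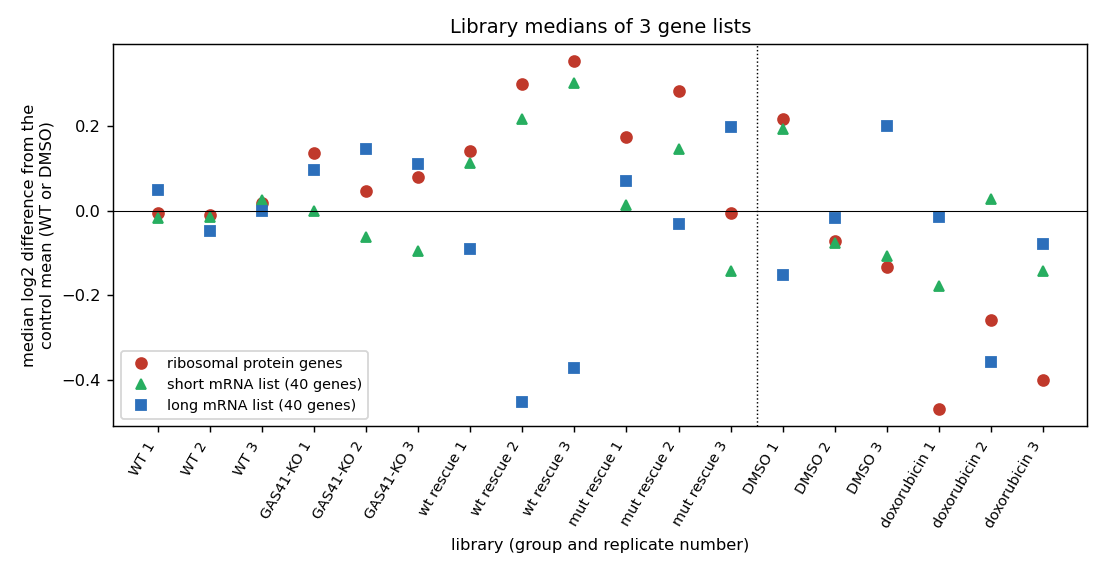
Median log2 difference from the mean of the controls (WT left of the dotted line, DMSO right of it) for ribosomal protein genes, 40 short and 40 long mRNAs in each library. In wt rescue replicates 2 and 3 the members are at 0.30 and 0.35 and long mRNAs at -0.45 and -0.37, and with doxorubicin the members lie below both other lists in replicates 1 and 3.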

How the data were processed

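RNA was sequenced on a BGISEQ-500 after poly-A selection (GAS41) or on an Illumina instrument (doxorubicin), per the labels' protocols. The submitters' processing notes name HTSeq, DESeq2, TopHat2 2.1.0, Bowtie 1.0.1, CASAVA 1.4 and Trimmomatic 0.36, and the builds hg19 and mm9, with no role for any of them. The gene annotation, strand setting and handling of shared reads are not given in the sources used here. Each experiment has 1 deposited table of variance-stabilized log2 values. That the authors derived them from reads divided by library size factors follows from the numbers, whose inverse was a whole read to within 8.56e-09 in every case. At 1 log2 above a table's lowest value, a gene has 39.1 (GAS41) or 52.6 (doxorubicin) normalized reads.

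Genes with at least 10 reads in at least 3 libraries were tested, 14505 of 18797 in the GAS41 table and 14195 of 21159 in the other. Log2 values were fitted with limma 3.58.1 in R 4.3.3 (mean-dependent prior variance), with all groups of a table in 1 fit and no replicate block. The planned count model was not used, because the values are log2. Python 3.11.15 with pandas 2.3.3, scipy 1.17.1 and matplotlib 3.10.9 made tables, exact permutation tests and plots. The procedure was tested on simulated data. Start sites are from RefSeq, GRCh38.p14, matched by symbol.

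The members, gene lists and tests were chosen with earlier results of these data known. Named in every comparison are the paralogs and partners, RPL5, RPL11, the stalk proteins and RPSA where tested, and then the 5 largest called changes of each sign with groups that do not overlap. Up to 3 genes of other lists are named, with YEATS4 and MYC. A planned ranking of levels per coding length was not made, because lengths were not used here. Levels are compared between genes only in the ratios of paralog to partner and where genes with few reads are named. Those comparisons use normalized reads that are not corrected for length. Alternatives were other scalings, voom on recovered reads, no filter, a replicate block, only the groups compared and leaving out each library. Depth was 16857982 to 18894312 reads per library. The marker lists gave summed levels of 49571 to 78932 normalized reads for colon epithelium in the GAS41 experiment and 61213 to 127333 in the other. These sums take in all listed markers present, tested or not. The 6 blood markers, of which LYZ alone was tested, summed to between 16.5 and 60.9. The 6 fibroblast markers, with 2 tested in each experiment, summed to between 161 and 406, and the 4 endothelial markers to between 14.5 and 39.5. Some items are not reported here.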

Additional observations from a re-analysis of the deposited data

Results flagged for a closer look

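The change over GAS41-KO differed between the rescue lines for 22 of 78 members, by the direct test of mut rescue against wt rescue, in which the GAS41-KO term cancels. That is 28.2% of the members, a smaller share than the 61.1% of all tested genes called in the same test. The 5 with the largest difference among those whose groups did not overlap are given here. The difference in log2 change was -0.55 for RPL26L1 (value -0.548), -0.50 for RPS26 (-0.497), -0.35 for RPL22 (-0.347), -0.34 for RPS7 (-0.339) and -0.34 for RPS13 (-0.336). The adjusted p-values in limma were 4.1e-05, 9.14e-05, 0.000561, 0.000706 and 0.00329. Scaled to the members' own total, the differences were -0.58 for RPL26L1, -0.40 for RPS26, -0.24 for RPL22, and -0.23 for both RPS7 and RPS13. YEATS4 RNA was 1.31-fold lower in mut rescue than in wt rescue (2482 ± 108 against 3253 ± 323 normalized reads), and the part of that difference was not tested.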

How the results depend on the processing

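Counts of members called depended on scaling more than on the filter. The shares of all tested genes called under these alternatives are not given here, so the counts describe the members alone. After quantile normalization, members called higher and lower were 25 and 10 for GAS41-KO over WT, 12 and 21 for wt rescue over GAS41-KO, 1 of each sign in mut rescue over GAS41-KO, 17 and 4 for mut over wt rescue, and 8 and 40 for doxorubicin over DMSO, and wt rescue over WT had 9 higher. With upper quartile factors, wt rescue over GAS41-KO had 4 lower, mut over wt rescue 3 higher and 11 lower, and wt rescue over WT 38 higher. Scaled to reads outside the members, wt rescue over GAS41-KO had 19 higher and 8 lower, mut over wt rescue 4 and 7, wt rescue over WT 17 higher and mut rescue over WT 2 lower. Scaled to the members' total, GAS41-KO over WT had 17 lower, wt rescue over GAS41-KO 18 and 13, mut rescue over GAS41-KO 1 and 1, mut over wt rescue 8 and 10, wt rescue over WT 4 and 3, mut rescue over WT 4 and 10, and doxorubicin 20 and 19. With only the groups compared, GAS41-KO over WT had 42 and 16, wt rescue over GAS41-KO 2 lower, mut over wt rescue 7 lower and mut rescue over WT 2 lower. With wt rescue replicate 1 alone in its group, an alternative chosen after seeing the data, GAS41-KO over WT had 10 lower, wt rescue over GAS41-KO 15 and 1, mut rescue over GAS41-KO 7 higher, mut over wt rescue 1 and 3, wt rescue over WT 5 and 0, and mut rescue over WT 2 lower. Median changes turned sign after quantile normalization (wt rescue over GAS41-KO -0.063, mut rescue over GAS41-KO -0.0035, mut over wt rescue 0.053), scaled to reads outside the members (mut over wt rescue 0.013), scaled to the members (-0.0061, -0.026 and 0.0038 in the same order, wt rescue over WT -0.0086, mut rescue over WT -0.012) and without mut rescue replicate 2 (mut rescue over GAS41-KO -0.0080). The cause was not tested. Relative to the size factors as deposited, scaling to the members moved the median of all genes by construction, and scaling to other reads moved it to -0.18 in wt rescue over GAS41-KO, -0.12 in wt rescue over WT and 0.13 in mut over wt rescue.

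After quantile normalization RPLP0 stood at -0.099 in GAS41-KO over WT, -0.068 in wt rescue over GAS41-KO, 0.093 in mut over wt rescue, -0.17 in wt rescue over WT, -0.073 in mut rescue over WT and 0.038 with doxorubicin. RPL26 (-0.074) and RPLP2 (-0.038) in wt rescue over GAS41-KO and RPSA (0.045) in mut over wt rescue also changed sign. Scaled to the members, signs changed in wt rescue over WT for RPL22L1 (-0.027), RPL36AL (-0.21) and RPL5 (-0.047), and with doxorubicin for RPL26 (0.025), RPL36AL (0.0032), RPL11 (0.067), RPLP0 (0.14) and RPSA (0.23). On the deposited log2 values, the ratio of RPL22L1 to RPL22 changed by -2.20 with doxorubicin, that of RPL26L1 to RPL26 by 0.36 in wt rescue over GAS41-KO, -0.40 in mut over wt rescue and -0.11 with doxorubicin, and that of RPL36AL to RPL36A by 0.30 in wt rescue over WT.

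Leaving out single libraries gave 6 to 22 higher and 2 to 10 lower for GAS41-KO over WT, 25 to 53 and 0 to 2 for wt rescue over GAS41-KO, for mut rescue over GAS41-KO 0 to 9 and 0 to 2, 0 to 2 and 8 to 46 for mut over wt rescue, 29 to 70 and 0 to 1 for wt rescue over WT, 8 to 46 and 0 to 3 for mut rescue over WT, and 1 to 5 and 45 to 59 for doxorubicin. In WT, GAS41-KO, wt rescue, mut rescue, DMSO and doxorubicin, the members' share of reads then stayed within 6.82% to 6.90%, 7.23% to 7.34%, 7.29% to 7.65%, 7.21% to 7.86%, 8.74% to 9.53% and 7.22% to 7.71%. Per 100 reads on other genes, it was 7.36 in WT, 7.87 in GAS41-KO, 8.06 in wt rescue, 10.1 with DMSO and 8.12 with doxorubicin. Deviations from group means correlated between same-numbered libraries at -0.39 to 0.478 over 18 pairs in the GAS41 experiment (7 at or under 0.1) and at -0.393 to 0.15 over 3 pairs in the other (2 at or under 0.1), so the numbers were not taken to pair libraries. A replicate block gave 16 higher and 5 lower for GAS41-KO over WT, 36 and 0 for wt rescue over GAS41-KO, 2 and 0 in mut rescue over GAS41-KO, 0 and 20 for mut over wt rescue, 61 and 1 for wt rescue over WT, 23 and 1 for mut rescue over WT, and 1 and 53 for doxorubicin, and 118 of 122 named gene results kept direction and side of the threshold with it. The calls it ended were RPLP2 in wt rescue over GAS41-KO, RPL24 in mut rescue over GAS41-KO, and RPLP0 in mut rescue over WT and with doxorubicin. Without the filter 119 of the 122 did. With 3 libraries a group, an exact permutation test cannot go below p = 0.1, and RPL39L and RPL21 were too low to test.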
